A study of Mus musculus with 4 samples.

Results

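The proteasome genes and Nfe2l1 were examined in RNA sequencing data of mouse brown adipose tissue (BAT). Members were the rows whose symbol is Psma, Psmb, Psmc, Psmd, Psme, Psmf or Psmg followed by a number, together with Pomp and Nfe2l1, which gave 50 of 55387 rows. The 50 members comprised 8 alpha ring genes, 7 constitutive beta ring genes, 3 immunoproteasome genes (Psmb8, Psmb9 and Psmb10), 1 thymus-specific beta gene, 6 ATPases and 11 other subunits of the 19S cap, 4 alternative activators and 1 inhibitor, 8 assembly chaperones and 1 transcription factor. BAT was taken from 4 male mice aged 15 weeks, 1 library per mouse. The control mice were 2 Sox4f/f animals, which carry floxed Sox4 alleles and which the sample labels call wild type. The other 2 mice were Sox4-MKO littermates, in which Myf5-Cre acts on the same floxed alleles. Myf5-Cre is active in progenitors of brown adipocytes and of skeletal muscle, so that endothelial and immune cells of the tissue are outside its intended target. The comparison asked how the mRNA levels of the protein degradation machinery differed between both genotypes.

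The 20S proteasome is a barrel of stacked rings, with alpha rings at the ends and beta rings inside, and the beta subunits Psmb5, Psmb6 and Psmb7 carry the catalytic sites. The 19S cap binds ubiquitin-tagged proteins, unfolds them with its ATPase ring and feeds them into the barrel. Nfe2l1 is an endoplasmic reticulum-bound transcription factor that is released when proteasomes are impaired and raises the transcription of proteasome genes, and in brown fat it is known for maintaining proteasome activity during cold exposure. Interferon induces Psmb8, Psmb9 and Psmb10, which replace Psmb5, Psmb6 and Psmb7 respectively to form the immunoproteasome.

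Nfe2l1 binds antioxidant response elements together with small Maf proteins, so the core of this element, TGACNNNGC on either strand, was searched in the RefSeq promoter windows of GRCm38.p6, which run from 250 bases before to 50 bases after a gene start. A window was available for 42 of the 50 members. It held the core in 6 members (14.3%), compared with 14.0% of 27025 symbols. These are the matches, with the 9 bases of the core in capitals and up to 10 flanking bases on each side, read 5′ to 3′ on the strand of the gene.
Psmb5, chr14:54618024-54618052, minus strand: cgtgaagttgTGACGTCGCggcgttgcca
Psmb6, chr11:70525338-70525366, plus strand: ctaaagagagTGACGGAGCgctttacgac
Psmd9, chr5:123228149-123228177, plus strand: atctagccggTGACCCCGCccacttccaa
Psmc6, chr14:45329587-45329615, plus strand: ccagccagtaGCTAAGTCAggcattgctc
Psmd12, chr11:107479278-107479299, plus strand: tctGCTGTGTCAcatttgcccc
Psme4, chr11:30771758-30771786, plus strand: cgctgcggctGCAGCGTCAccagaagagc
The last 3 matches are on the reverse strand of the gene and therefore show the complement of the core. Distances are counted from the RefSeq start of the promoter table, which can differ from the GENCODE gene bounds given with the values. It does so for all 6 genes with these matches. By the GENCODE bounds, the match of Psme4 lies inside the gene. The match of Psmd9 also lies inside it, far from either end (chr5:123169413-123250131). The core began 47, 9 and 31 bases before the gene start in Psmb5, Psmb6 and Psmd9, and 227, 247 and 7 bases before it in Psmc6, Psmd12 and Psme4. The CCAAT box, searched on both strands, was present in 15 of the 42 windows (35.7%), compared with 41.1% of all symbols. The core of the interferon-stimulated response element, on either strand, was present in 5 windows (11.9%), compared with 4.0% of all symbols. These 5 were the windows of Psmb3, Psmd4, Psmd9, Psme1 and Psmg4. The genes for which it was searched, Psmb8, Psmb9 and Psmb10, were not among them. Psmb9 had a window, which held a CCAAT box. Whether Psmb8 and Psmb10 were among the 42 members with a window is not given here. In Psmb3, Psmd4, Psme1 and Psmg4 both Sox4-MKO libraries lay below both controls, as in 29.6% of all tested genes. In Psmd9 both lay above both controls, as in 21.7% of all tested genes. A link between the element and the levels was not tested. The matches of the first 4 genes, chosen by these values, are shown. The core is in capitals, forward in Psmg4 and on the reverse strand in the other 3.
Psmb3, chr11:97703261-97703290, plus strand: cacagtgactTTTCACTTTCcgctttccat
Psmd4, chr3:95042675-95042704, minus strand: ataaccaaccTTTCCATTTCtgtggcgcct
Psmg4, chr13:34162969-34162998, plus strand: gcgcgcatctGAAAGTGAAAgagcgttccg
Psme1, chr14:55578493-55578522, plus strand: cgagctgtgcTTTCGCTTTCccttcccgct
A match of letters is a description of the sequence and does not show that a factor is bound there.

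Levels were deposited as FPKM, in which the fragments of a gene are divided by its transcript length in kilobases and by the size of the library. The lowest values of genes with 1 annotated transcript gave approximate depths of 12100000 to 16200000 fragments per library, and the FPKM summed to between 472062 and 578011. Sox4 itself had 1.98 and 1.06 FPKM in Sox4f/f mice 1 and 2, compared with 0.98 and 3.06 FPKM under the label Sox4-MKO, so its mRNA was not lower there (log2 fold change 0.20, limma adjusted p = 0.843). Brown fat markers were present in all libraries and were lower under the label Sox4-MKO for 7 of 7 genes, 5 of which passed an unadjusted p under 0.05 in limma, and Ucp1 had 1935 and 1814 FPKM in Sox4f/f and 733 and 1105 FPKM in Sox4-MKO. Of 8 skeletal muscle markers, 7 were higher in Sox4-MKO at an unadjusted p under 0.05 in limma, all 8 were highest in Sox4-MKO mouse 1, and none was at 0. Their summed level was 199 and 756 FPKM in Sox4f/f mice 1 and 2, and 14570 and 2417 FPKM in Sox4-MKO mice 1 and 2. Of 8 tested immune cell markers, 4 were higher in Sox4-MKO at an unadjusted p under 0.05 in limma, and Itgax was lower in sign. At this limit, 7.95% of all tested genes were higher and 8.28% were lower. The summed level of the 12 immune cell markers was 36.3 and 51.9 FPKM in Sox4f/f and 77.4 and 74.6 FPKM in Sox4-MKO. In whole tissue, fewer cells of a type and less RNA per cell cannot be told apart.

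Proteasome mRNAs were abundant in all 4 libraries. Of the 50 members, 48 had an averaged FPKM above 1 in at least 1 genotype and were tested, and their levels ranged from 6.36 to 173 FPKM. The remaining 2 are genes known for other tissues. Psmb11, the beta subunit of the thymus, was listed at 0 in every library, and Psma8, the alpha subunit of the testis, had between 0.044 and 0.096 FPKM, an estimated 1 or 2 fragments. Summed over all members, the level was 2853 and 2835 FPKM in Sox4f/f mice 1 and 2, and 3149 and 2603 FPKM in Sox4-MKO mice 1 and 2. The library of Sox4-MKO mouse 1 was therefore the highest and that of Sox4-MKO mouse 2 the lowest, with both controls between them.

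**Figure D1:**
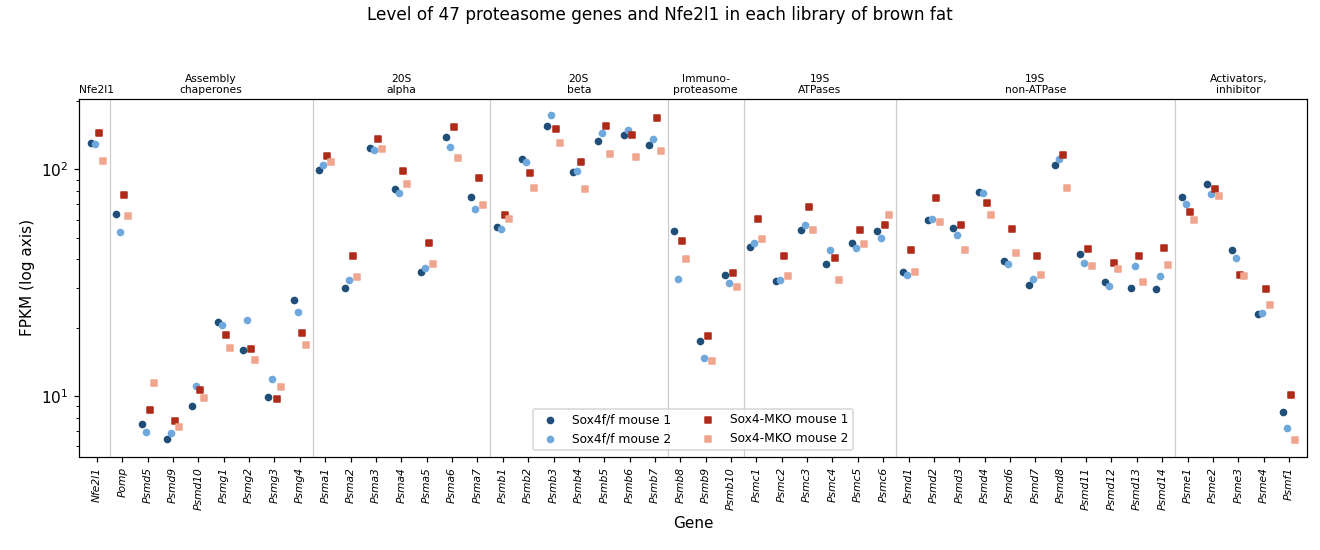
FPKM (log axis) of the 48 tested members in each library, grouped by role, where circles are the Sox4f/f mice and squares the Sox4-MKO mice. The red squares of Sox4-MKO mouse 1 are the topmost points for 32 of 48 members, and the pale squares of Sox4-MKO mouse 2 are the lowest for 24.

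Although the subunits of the 20S core are present in equal numbers in the particle, their mRNAs were not. Psmb3, a non-catalytic beta subunit, had the highest mean over the 4 libraries, 152.6 FPKM, followed by the catalytic subunits Psmb7, Psmb5 and Psmb6 with 138, 138 and 137 FPKM. Psma2 and Psma5, both of the alpha ring, had the lowest means, 34.3 and 39.4 FPKM. The span from Psmb3 to Psma2 was 4.45-fold, whereas the highest library exceeded the lowest by a median of 1.33-fold for a given 20S gene. The ranges of Psmb3, Psmb7, Psmb5, Psmb6 and Psma6 over libraries overlapped, and their ranks by mean are uncertain. Among these genes only Psmb3 and Psmb6 kept the same order in every library, with Psmb3 higher. In the 19S cap, Psmd8 had the highest mean, 103.8 FPKM, and Psmd12 the lowest, 34.4 FPKM, a span of 3.02-fold compared with a median of 1.29-fold between libraries. The 6 lowest ranks of the cap, Psmd1, Psmd14, Psmd13, Psmc2, Psmd7 and Psmd12, overlapped in their ranges. The immunoproteasome genes were lower than the constitutive catalytic ones, with means of 43.8 FPKM for Psmb8, 32.7 FPKM for Psmb10 and 16.2 FPKM for Psmb9. The assembly chaperones were the lowest group, and apart from Pomp their levels lay between 6.41 and 26.4 FPKM.

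Between genotypes, the differences at proteasome genes were small. Of the 48 tested members, 1 was lower in Sox4-MKO at an unadjusted p under 0.05 in limma, where 8.28% of all 12877 tested genes were lower, and 0 were higher, where 7.95% of all tested genes were higher. Counted in either direction, the share was 2.08% of the members and 16.2% of all tested genes. No member passed after Benjamini-Hochberg adjustment in limma, and neither did any other gene, the smallest adjusted p being 0.191 for all genes and 0.253 for the members. The log2 fold change was between -0.46 and 0.41 for all 48 members and thus under 0.5 in size, as it was for 79.6% of all tested genes. The median size was 0.17 for members and 0.24 for all tested genes. In this main fit, the 95% confidence intervals of the members reached from -0.84 at the lowest to 0.90 at the highest. For each of the 48 members the interval lay within a 2-fold change in either direction (log2 of -1 to 1), as it did for 9093 of all 12877 tested genes. The median half-width of the interval was 0.39 for members and 0.515 for all tested genes. A change smaller than the half-width of its own interval was within the error that 2 mice per genotype leave. Intervals were not computed under other scalings, where Psmd5 had 0.478 (SE 0.211) with a common sum without mitochondrially encoded genes and Ucp1 and 0.605 (SE 0.193) with a common sum of all FPKM. With a common sum of all FPKM, a scaling added after the data were seen, 17 of the 48 members were called higher, where 14.6% of all tested genes were called higher, and 0 were called lower, where 2.56% were called lower.

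**Figure D2:**
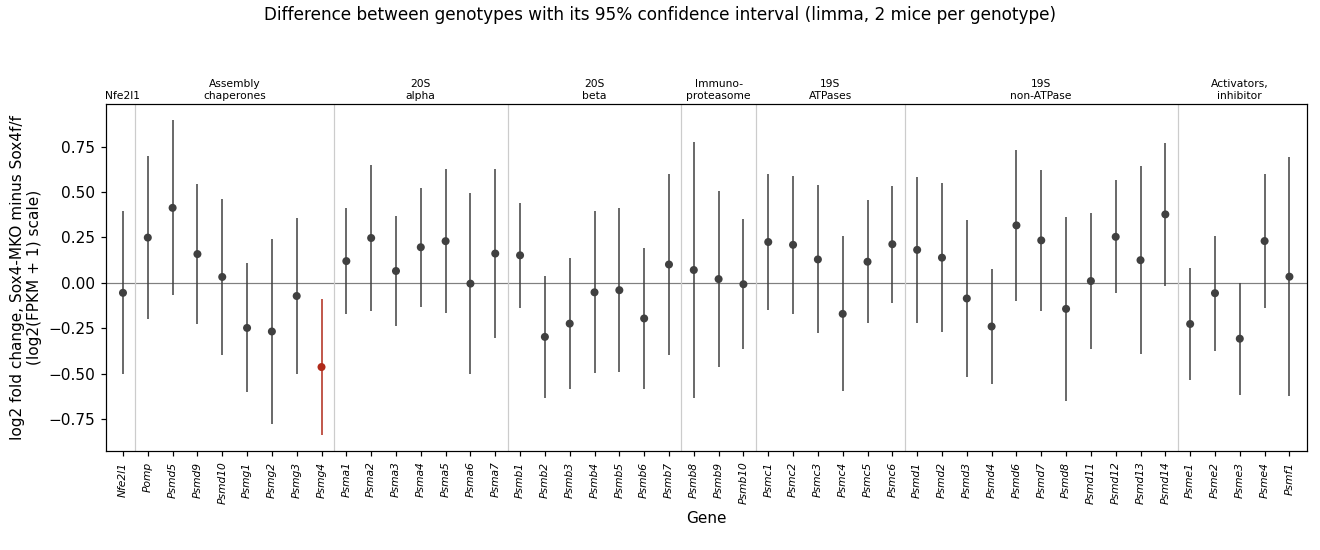
Log2 fold change on the log2(FPKM + 1) scale, Sox4-MKO minus Sox4f/f, of the 48 tested members with 95% confidence intervals from limma (2 mice per genotype). The interval of Psmg4 (red) lies below 0, and those of the other members include 0.

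In sign, 29 members were higher and 19 lower in Sox4-MKO, and their median log2 fold change was 0.07, compared with -0.05 for all tested genes. The libraries of both genotypes did not overlap for 15 members that were higher in Sox4-MKO, where this held for 21.7% of all tested genes, and for 8 members that were lower, where it held for 29.6%. The 15 members on the higher side were Psma1, Psma2, Psma4, Psma5, Psmb1, Psmc1, Psmc2, Psmc6, Psmd5, Psmd6, Psmd7, Psmd9, Psmd12, Psmd14 and Psme4. The 8 on the lower side were Psmb2, Psmb3, Psmb6, Psmd4, Psme1, Psme3, Psmg1 and Psmg4. The members with a core antioxidant response element in their promoter window were found on both sides, Psmb6 on the lower side, Psmc6, Psmd9, Psmd12 and Psme4 on the higher side, and Psmb5 on neither.

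Nfe2l1 (chr11:96817414-96829968, minus strand, GRCm38) had 130.4 and 129.5 FPKM in Sox4f/f and 144 and 108 FPKM in Sox4-MKO. The control libraries lay between both Sox4-MKO libraries. Its log2 fold change was -0.06 (SE 0.17, limma adjusted p = 0.892). The direction followed the library that was left out, with a log2 fold change of -0.26 when Sox4-MKO mouse 1 was left out and 0.15 when Sox4-MKO mouse 2 was. It was also above 0 when libraries were scaled to a common sum of FPKM without mitochondrially encoded genes and Ucp1 (0.02) or of all genes (0.16). The ratio of Nfe2l1 to the summed 20S genes, which a single scaling factor per library does not change, was 9.25% and 9.05% in Sox4f/f and 9.21% and 8.49% in Sox4-MKO. An exact permutation test over libraries gave p = 0.667 for this ratio (0.815 adjusted over the 11 ratios computed), and the smallest p that 2 against 2 mice allow is 0.333.

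Genes that handle the Nfe2l1 protein or pair with it were taken from a list of 20, of which 18 were tested. In this list 1 gene was lower in Sox4-MKO at an unadjusted p under 0.05 in limma and 0 were higher, with a median log2 fold change of -0.09. At the same limit, 8.28% of all tested genes were lower and 7.95% were higher. The called gene was Mafk, which encodes a small Maf partner. It had 10.9 and 13.2 FPKM in Sox4f/f and 7.78 and 6.90 FPKM in Sox4-MKO, and the genotypes did not overlap (log2 fold change -0.64, SE 0.17, limma adjusted p = 0.227). Mafk was not called without Sox4f/f mouse 2 (log2 fold change -0.52), without Sox4-MKO mouse 2 (-0.56) or with a common sum of all FPKM (-0.45). Vcp, the ATPase that extracts Nfe2l1 from the membrane, was not called, with 95.4 and 90.8 FPKM in Sox4f/f and 121 and 93.2 FPKM in Sox4-MKO. The protease Ddi2, which cleaves Nfe2l1 into its active form, had 15.6 and 12.9 FPKM in Sox4f/f and 10.1 and 11.1 FPKM in Sox4-MKO (limma adjusted p = 0.327). The related factor Nfe2l2 had 33.6 and 30.0 FPKM in Sox4f/f and 29.4 and 28.5 FPKM in Sox4-MKO (limma adjusted p = 0.631).

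In the alpha ring, which forms the gate of the barrel, 6 of 7 tested genes were higher in sign and 0 were called. The median log2 fold change was 0.16, and it remained above 0 under every scaling and without either Sox4-MKO library, with values from 0.08 to 0.37. With a common sum of all FPKM, 4 of the 7 were called higher (Psma1, Psma2, Psma4 and Psma5), where 14.6% of all tested genes were. Psma2 (chr13:14613240-14674236) had the highest log2 fold change of the ring. Its levels were 30.0 and 32.3 FPKM in Sox4f/f and 41.3 and 33.4 FPKM in Sox4-MKO. Both Sox4-MKO libraries were above the controls, mouse 2 by little (log2 fold change 0.25, SE 0.15, limma adjusted p = 0.472). Psma6 (chr12:55384222-55418454) had the lowest log2 fold change of the ring. Its levels were 139 and 126 FPKM in Sox4f/f and 155 and 112 FPKM in Sox4-MKO. The Sox4-MKO libraries lay on both sides of the controls (log2 fold change -0.004, SE 0.19, limma adjusted p = 0.991).

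In the constitutive beta ring, 5 of 7 genes were lower in sign, 2 were higher and 0 were called. Its median log2 fold change of -0.05 turned to 0.02 with a common sum without mitochondrially encoded genes and Ucp1 and to 0.16 with a common sum of all FPKM, and leaving out Sox4-MKO mouse 1 gave -0.25, whereas leaving out Sox4-MKO mouse 2 gave 0.15. Psmb5 (chr14:54614119-54618022), with chymotrypsin-like activity, had 134 and 144 FPKM in Sox4f/f and 155 and 117 FPKM in Sox4-MKO. Psmb6 (chr11:70525367-70527858), with caspase-like activity, had 142 and 149 FPKM in Sox4f/f and 141 and 114 FPKM in Sox4-MKO. Psmb7 (chr2:38588036-38644087), with trypsin-like activity, had 129 and 136 FPKM in Sox4f/f and 168 and 120 FPKM in Sox4-MKO. For all 3 catalytic genes Sox4-MKO mouse 2 was the lowest library. Their log2 fold changes were -0.04 (SE 0.17) for Psmb5, -0.20 (SE 0.15) for Psmb6 and 0.10 (SE 0.19) for Psmb7, with limma adjusted p of 0.919, 0.538 and 0.813. Psmb2, a non-catalytic beta subunit, had 111 and 108 FPKM in Sox4f/f and 96.0 and 82.7 FPKM in Sox4-MKO (log2 fold change -0.30, limma adjusted p = 0.342). Psmb1, also non-catalytic, had 55.9 and 54.6 FPKM in Sox4f/f and 62.9 and 60.1 FPKM in Sox4-MKO, without overlap (log2 fold change 0.15, SE 0.11, limma adjusted p = 0.523).

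The immunoproteasome genes did not separate the genotypes. Psmb8 (chr17:34197721-34201454) had 53.7 and 32.8 FPKM in Sox4f/f and 48.3 and 40.3 FPKM in Sox4-MKO. Both Sox4-MKO values lay between the controls. Psmb9 (chr17:34181987-34187764) had 17.4 and 14.6 FPKM in Sox4f/f and 18.4 and 14.3 FPKM in Sox4-MKO, and Psmb10 (chr8:105935735-105938444) had 34.0 and 31.4 FPKM in Sox4f/f and 34.9 and 30.3 FPKM in Sox4-MKO. For Psmb9 and Psmb10 the controls lay between both Sox4-MKO libraries. The log2 fold changes were 0.07 (SE 0.27) for Psmb8, 0.02 (SE 0.18) for Psmb9 and -0.01 (SE 0.14) for Psmb10, with limma adjusted p of 0.912, 0.966 and 0.983. Their 95% confidence intervals were -0.63 to 0.78, -0.46 to 0.50 and -0.37 to 0.35. Psmb8 and Psmb9 flank Tap1, a peptide transporter gene of the major histocompatibility complex, and an exon of Psmb9 overlaps one of Tap1 on the opposite strand. The labels name a stranded library kit and the methods an unstranded one, so it is unsure whether fragments of both genes were separated.

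The level of the 3 immunoproteasome genes, relative to that of Psmb5, Psmb6 and Psmb7, was 26.0% and 18.4% in Sox4f/f and 21.9% and 24.1% in Sox4-MKO. Both Sox4-MKO values lay within the range of the controls (difference in log2 ratio 0.07, exact permutation p = 1.0, two-sided, and 1.0 adjusted over 11 ratios). Without Sox4f/f mouse 2 the difference was -0.18. The ratio of Psmb8 to Psmb5 was 40.2% and 22.8% in Sox4f/f and 31.2% and 34.3% in Sox4-MKO, and most of the spread between control mice came from Psmb8.

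Genes of interferon signalling and antigen presentation that act with the immunoproteasome were taken from a list of 16, of which 15 were tested. Of these, 1 was higher at an unadjusted p under 0.05 in limma and 0 were lower. At the same limit, 7.95% of all tested genes were higher and 8.28% were lower. The median log2 fold change of the list was 0.19, compared with -0.05 for all tested genes. The called gene was B2m, the light chain of class I molecules, with 1419 and 1086 FPKM in Sox4f/f and 1704 and 1786 FPKM in Sox4-MKO (log2 fold change 0.49, SE 0.17, limma adjusted p = 0.286). The call was lost when any 1 of the 4 libraries was left out, when the log2 fold change was 0.30 to 0.68, and was also lost with a common median (0.47), with an FPKM limit of 0.1, with no limit and with the replicate block (0.49 in each). B2m was still called with quantile normalization (0.77), with a common sum without mitochondrially encoded genes and Ucp1 (0.56) and with a common sum of all FPKM (0.705). It was also called with an FPKM limit of 5 and with pseudocounts of 0.1 and 0.01 (0.49 in each). H2-K1, a class I heavy chain, had 555 and 476 FPKM in Sox4f/f and 697 and 628 FPKM in Sox4-MKO (limma adjusted p = 0.311). The immune cell marker Ptprc was higher in the same libraries, with 4.46 and 4.47 FPKM in Sox4f/f and 6.82 and 7.87 FPKM in Sox4-MKO, and the part of immune cells in these values was not tested. Ifng, the interferon gene of the list, was at or below 0.324 FPKM in every library and was not tested.

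In the 19S cap, 13 of 17 genes were higher in sign, 4 were lower and 0 were called. The median log2 fold change was 0.14 and remained above 0 under every scaling, but was 0.02 without Sox4-MKO mouse 1. With a common sum of all FPKM, 9 of the 17 were called higher (Psmc1, Psmc2, Psmc5, Psmc6, Psmd1, Psmd6, Psmd7, Psmd12 and Psmd14), where 14.6% of all tested genes were. Among the ATPases, which thread substrates into the barrel, Psmc1 (chr12:100110154-100123405) had the highest log2 fold change. Its levels were 45.6 and 47.5 FPKM in Sox4f/f and 60.1 and 49.4 FPKM in Sox4-MKO (log2 fold change 0.22, SE 0.14, limma adjusted p = 0.481). Psmc4 (chr7:28041707-28050101) had the lowest log2 fold change of the ATPases. Its levels were 38.3 and 43.9 FPKM in Sox4f/f and 40.5 and 32.6 FPKM in Sox4-MKO. Its genotypes overlapped (log2 fold change -0.17, SE 0.16, limma adjusted p = 0.622).

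Among the other cap subunits, Psmd14 (chr2:61711694-61800376), the deubiquitinase that removes ubiquitin chains from substrates, had the highest log2 fold change. It had 29.6 and 33.7 FPKM in Sox4f/f and 45.0 and 37.9 FPKM in Sox4-MKO, and both Sox4-MKO libraries were above both controls (log2 fold change 0.38, SE 0.15, limma adjusted p = 0.318). It passed an unadjusted p under 0.05 in limma under 4 other scalings, with log2 fold changes from 0.36 to 0.59, and without Sox4-MKO mouse 2 (0.50). It did not pass without Sox4f/f mouse 1 (0.29), without Sox4f/f mouse 2 (0.47), without Sox4-MKO mouse 1 (0.26) or with the replicate block (0.38). Psmd4 (chr3:95032694-95042614), a ubiquitin receptor, had the lowest log2 fold change of these subunits. Its levels were 79.4 and 78.5 FPKM in Sox4f/f and 70.8 and 62.7 FPKM in Sox4-MKO. Both Sox4-MKO libraries were below the controls (log2 fold change -0.24, SE 0.12, limma adjusted p = 0.393).

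Of the alternative activators, which open the barrel without ubiquitin recognition by the 19S cap, and the inhibitor Psmf1, 2 of 5 were higher in sign, 3 were lower and 0 were called. The nuclear activator Psme3 (chr11:101316213-101323537) had the lowest log2 fold change of them. Its levels were 44.1 and 40.7 FPKM in Sox4f/f and 34.3 and 33.8 FPKM in Sox4-MKO. The genotypes did not overlap, and the mice of each genotype were close to each other (log2 fold change -0.31, SE 0.12, limma adjusted p = 0.309). Psme3 was called lower with a common median (-0.33), with an FPKM limit of 0.1 and with no limit (-0.31 in each). It was not called with quantile normalization (-0.26), a common sum without mitochondrially encoded genes and Ucp1 (-0.24) or a common sum of all FPKM (-0.10). Psme4 (chr11:30771726-30880361), a large single-chain activator, had the highest log2 fold change of this group. Its levels were 22.9 and 23.3 FPKM in Sox4f/f and 29.7 and 25.1 FPKM in Sox4-MKO (log2 fold change 0.23, SE 0.14, limma adjusted p = 0.464). The interferon-inducible activator is formed by Psme1 and Psme2, which lie 5911 bases apart on chromosome 14. Psme1 had 75.7 and 70.3 FPKM in Sox4f/f and 64.5 and 59.9 FPKM in Sox4-MKO (log2 fold change -0.23, limma adjusted p = 0.405). Psme2 had 86.3 and 77.9 FPKM in Sox4f/f and 81.6 and 76.0 FPKM in Sox4-MKO, and is uncertain because the near-identical copy Psme2b was listed at 5.21 to 6.30 FPKM.

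The only called member was an assembly chaperone. Psmg4 (chr13:34162964-34178173), one of the factors that build the alpha ring, had 26.4 and 23.4 FPKM in Sox4f/f and 18.9 and 16.7 FPKM in Sox4-MKO, from an estimated 197, 157, 132 and 150 fragments in this order. Both Sox4-MKO libraries were below both controls (log2 fold change -0.46, SE 0.14, limma adjusted p = 0.253). It was not called without Sox4f/f mouse 1 (log2 fold change -0.38), without Sox4f/f mouse 2 (-0.55) or without Sox4-MKO mouse 2 (-0.38), and was called without Sox4-MKO mouse 1 (-0.55). With a common sum of all FPKM its log2 fold change was -0.26 and it was not called, and it was called under the other 3 scalings (-0.49 to -0.40).

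The other alpha ring builders had the same sign, but were not called. Psmg1 had 21.1 and 20.6 FPKM in Sox4f/f and 18.6 and 16.2 FPKM in Sox4-MKO, Psmg2 had 15.9 and 21.7 compared with 16.1 and 14.4 FPKM, and Psmg3 had 9.89 and 11.9 compared with 9.65 and 10.9 FPKM. The genotypes overlapped for Psmg2 and Psmg3. The median log2 fold change of Psmg1 to Psmg4 was -0.26, and it remained below 0 under every scaling, with -0.06 as the value nearest to 0. Pomp (chr5:147860461-147876456), which brings the beta subunits onto the alpha ring, had 63.8 and 53.0 FPKM in Sox4f/f and 77.1 and 62.3 FPKM in Sox4-MKO, and the genotypes overlapped (log2 fold change 0.25, SE 0.17, limma adjusted p = 0.504). Chaperones of the 19S base were higher in sign, and Psmd5 (chr2:34849734-34874968) had the highest log2 fold change of all tested members. Its levels were 7.49 and 6.94 FPKM in Sox4f/f and 8.66 and 11.4 FPKM in Sox4-MKO (log2 fold change 0.41, SE 0.18, limma adjusted p = 0.353). Psmd5 was the only called member on the higher side without Sox4-MKO mouse 1 (log2 fold change 0.59).

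Ratios within a library are not changed by a single scaling factor per library, whereas quantile normalization moved the log2 difference of the immunoproteasome ratio from 0.07 to 0.11. Apart from the immunoproteasome ratio, those given here were chosen after the members' values had been seen, and 11 ratios were computed in all. The summed beta ring genes were 1.41 and 1.52 times the summed alpha ring genes in Sox4f/f mice 1 and 2, and 1.29 and 1.24 times in Sox4-MKO mice 1 and 2. The 19S genes summed to 57.4% and 57.4% of the 20S genes in Sox4f/f and to 60.6% and 61.4% in Sox4-MKO. Psmg1 to Psmg4 summed to 5.20% and 5.41% of the 20S genes in Sox4f/f and to 4.04% and 4.56% in Sox4-MKO, whereas Pomp was at 4.53% and 3.70% in Sox4f/f and 4.92% and 4.88% in Sox4-MKO. The genotypes did not overlap in these 4 ratios, and their log2 differences were -0.21, 0.09, -0.31 and 0.26 in this order. The exact permutation p was 0.333 for each, the smallest that the design allows, and 0.611 after Benjamini-Hochberg adjustment over the 11 ratios.

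**Figure D3:**
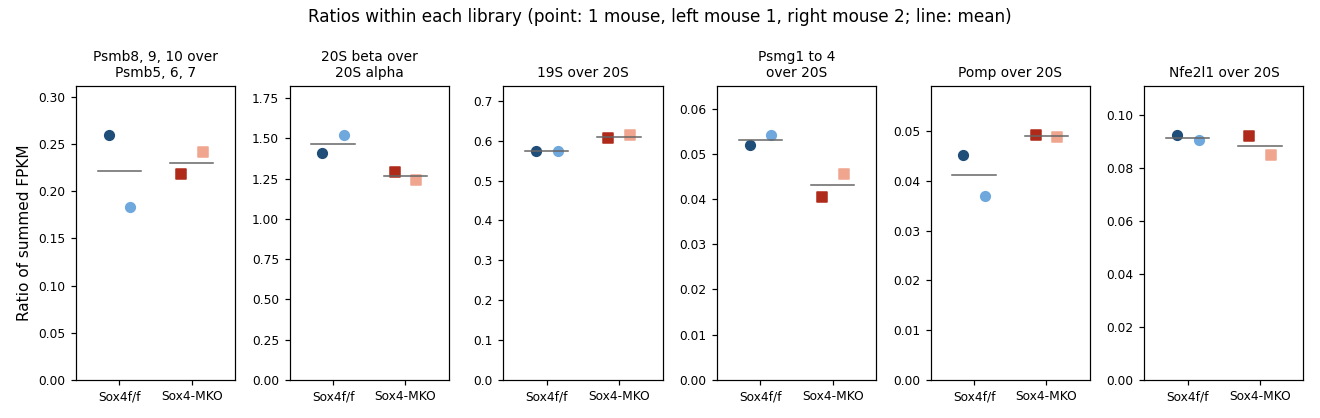
Ratios of summed FPKM within each library, with circles for Sox4f/f, squares for Sox4-MKO and a line at the mean of each genotype; every axis starts at 0. The immunoproteasome ratios of Sox4-MKO (21.9% and 24.1%) lie within the range of the controls, whereas the beta to alpha ratios (1.29 and 1.24) lie below both controls.

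The 2 mice labelled Sox4-MKO differed from each other across the members. Sox4-MKO mouse 1 was above Sox4-MKO mouse 2 for 45 of 48 members (93.8%), compared with 61.3% of all tested genes, and the median log2 difference was 0.25 for members and 0.09 for all tested genes. Sox4f/f mouse 1 was above Sox4f/f mouse 2 for 26 members (54.2%), compared with 52.3% of all tested genes, with a median log2 difference of 0.02 for both. The 3 exceptions among members were Psmc6, Psmd5 and Psmg3. Sox4-MKO mouse 1 had the highest level for 32 members (66.7%, compared with 31.7% of all tested genes), and Sox4-MKO mouse 2 had the lowest for 24 (50.0%, compared with 34.3%). Against Sox4f/f mice 1 and 2, the median log2 difference of Sox4-MKO mouse 1 was 0.17 and 0.19 for members and -0.02 and 0.01 for all tested genes. That of Sox4-MKO mouse 2 was -0.07 and -0.04 for members and -0.10 and -0.07 for all tested genes. The members were thus above the controls in 1 of the 2 mice labelled Sox4-MKO.

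**Figure D4:**
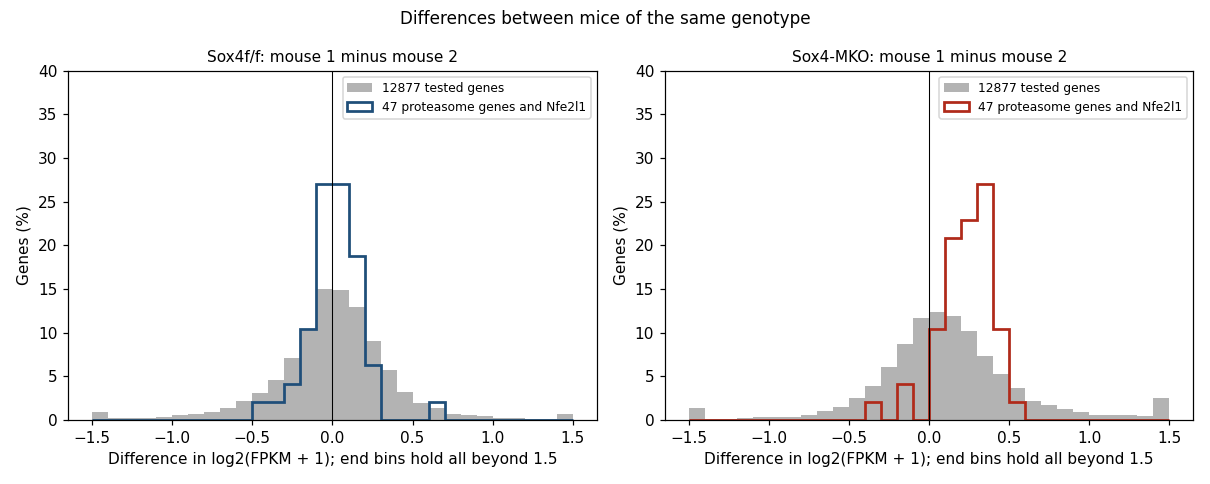
Percentage of genes by the difference in log2(FPKM + 1) between mouse 1 and mouse 2 of the same genotype, for the tested members (outline) and all 12877 tested genes (grey). Members center near 0 in Sox4f/f (median 0.02) and lie to the right of 0 in Sox4-MKO (median 0.25).

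Sox4-MKO mouse 1 was also the library with the most skeletal muscle mRNA, as Acta1, the actin of muscle fibers, had 4512 FPKM in it and 59.9, 226 and 898 FPKM in Sox4f/f mouse 1, Sox4f/f mouse 2 and Sox4-MKO mouse 2. The part of muscle in the proteasome values was not tested. Without Sox4-MKO mouse 1, 29 of 48 members were lower in sign and the median log2 fold change of members was -0.05, compared with -0.09 for all tested genes. In this comparison 4 members were called lower (Psmb2, Psmb6, Psmd8 and Psmg4), where 7.88% of all tested genes were called lower, and 1 was called higher (Psmd5), where 7.21% were called higher. Without Sox4-MKO mouse 2, 0 members were called lower, where 6.33% of all tested genes were, and 5 were called higher (Psma5, Psmb7, Psmc1, Psmd6 and Psmd14), where 11.2% were, and the median was 0.19. These calls are at an unadjusted p under 0.05 in limma, and the smaller of both groups then had 1 library.

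Genes that supply ubiquitin or carry substrates to the proteasome were taken from a list of 24, of which 22 were tested. At an unadjusted p under 0.05 in limma, 3 were lower and 0 were higher, and the median log2 fold change was -0.02. Of all tested genes, 8.28% were lower and 7.95% were higher at this limit. Ubqln4, a shuttle that binds ubiquitin chains and the 19S cap, had 44.9 and 41.3 FPKM in Sox4f/f and 29.8 and 29.2 FPKM in Sox4-MKO (log2 fold change -0.53, SE 0.12, limma adjusted p = 0.214). Zfand2a, a stress-induced protein that associates with the proteasome, had 8.51 and 9.86 FPKM in Sox4f/f and 5.68 and 6.96 FPKM in Sox4-MKO (log2 fold change -0.48, SE 0.17, limma adjusted p = 0.296). In Ubqln4 and Zfand2a both Sox4-MKO libraries were below both controls. Ubqln4 was not called without Sox4f/f mouse 1 (log2 fold change -0.47). Zfand2a was called neither when any 1 of the 4 libraries was left out (-0.61 to -0.35) nor under any of the 4 other scalings (-0.51 to -0.29).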

How the data were processed

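RNA sequencing was performed on BAT of 4 mice, 2 per genotype, with groups taken from the sample labels. The authors deposited FPKM per gene and library, and the submitters' processing notes name mm10, Cufflinks 2.1.1 and Cuffdiff. The values carry no counts, so limma 3.58.1 (R 4.3.3) with a trended prior was fitted on log2(FPKM + 1) over 12877 genes. These had a mean FPKM above 1 in 1 or both genotypes, the limit of the methods. p-values are two-sided, calls are at an unadjusted p under 0.05 as in the methods, and Benjamini-Hochberg values are given beside them. Fold changes on this scale understate those of low genes.

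The code was tested on simulated data. Coordinates and transcript lengths are those of GRCm38 (GENCODE M21), matched by symbol for 50 of 50 members. For 11 members an exon overlaps a gene on the opposite strand. Depth was estimated from single-transcript genes of at least 1500 nt and is approximate. Members and lists were chosen with earlier results of these data known. Values were given in full for Nfe2l1, Pomp, Psmb5 to Psmb10, the highest and the lowest log2 fold change among the alpha ring, the 19S ATPases, the other 19S subunits, the activators with the inhibitor and the assembly chaperones, and list genes at an unadjusted p under 0.05, and the other genes named with values were chosen after their values were seen. The fit was repeated with a replicate block, without each library in turn, with other scalings, other FPKM limits and pseudocounts of 0.1 and 0.01. A common sum of all FPKM was added after the data were seen. Protein sequences were not used here. Values of 1 called gene of the ubiquitin list are not reported here.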

Additional observations from a re-analysis of the deposited data

How the results depend on the processing

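The median log2 fold change of members stayed above 0 under every alternative except without Sox4-MKO mouse 1 (-0.05). It was 0.28 with a common sum of all FPKM, which moved the median of all genes from -0.05 to 0.14 and that of the immunoproteasome genes to 0.22. The lower share of all calls was 51.0%, 36.1% with a common sum without mitochondrially encoded genes and Ucp1, and 15.0% with a common sum of all FPKM. Leaving out 1 library gave 813 to 2258 called genes instead of 2090, 0 to 4 members called lower instead of 1, and 0 to 5 called higher instead of 0. Members called lower were 3 with a common median (9.66% of all tested genes), 2 each with an FPKM limit of 0.1 (6.09%) and no limit (5.65%), and 0 with a common sum of all FPKM (2.56%). Members called higher were 1 with a common median (8.08% of all tested genes), 1 with no limit (5.9%), 2 with quantile normalization (7.35%), 3 with a common sum without mitochondrially encoded genes and Ucp1 (10.3%), and 17 with a common sum of all FPKM (14.6%). With the replicate block, 1 member was called lower, 0 were called higher and 1908 genes were called. Mice share only a number across genotypes, and their deviations did not correlate (r = -0.01).

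Log2 fold changes changed sign with a common sum without mitochondrially encoded genes and Ucp1 for Nfe2l1 (0.017), Psmb5 (0.031), Psmb10 (0.062), Psma6 (0.067), Psmb4 (0.019) and Psme2 (0.014). With a common sum of all FPKM they did so for these genes (0.16, 0.17, 0.20, 0.21, 0.16 and 0.155) and for Psmb6 (0.017), Psmc4 (0.038), Psmd3 (0.124), Psmd8 (0.069) and Psmg3 (0.123). The sign changed for Psmb9 (-0.001) and Psmd11 (-0.012) with a common median and for Psmb10 (0.014) and Psme2 (0.007) with quantile normalization. Of the 48 members, 5 to 12 changed sign when 1 library was left out. Among those given in full, this gave -0.26 to 0.15 for Nfe2l1, -0.24 to 0.16 for Psmb5, -0.14 to 0.34 for Psmb7, -0.28 to 0.42 for Psmb8, -0.15 to 0.19 for Psmb9, -0.11 to 0.093 for Psmb10, -0.23 to 0.23 for Psma6 and -0.18 to 0.32 for the log2 immunoproteasome ratio. The cause was not tested.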

Other observations

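The files list copies of 20S genes whose symbols end in ps. Psmb5-ps, Psmb6-ps and Psmb6-ps2 were listed at 0 in every library. Psma5-ps was at or below 0.207 FPKM and Psmb7-ps2 at or below 0.330 FPKM. Among relatives of Nfe2l1, Nfe2 was at or below 0.308 FPKM, and Nfe2l3 had 1.52 and 0.639 FPKM in Sox4f/f and 0.590 and 0.494 FPKM in Sox4-MKO, with both Sox4-MKO libraries below the controls.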
